A study of Homo sapiens with 7 samples.

Results

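The NRF2 antioxidant program is described here by 9 genes: the transcription factor NFE2L2 (the gene symbol of NRF2), its inhibitor KEAP1, and the target genes NQO1, HMOX1, GCLC, GCLM, TXNRD1, SRXN1 and SLC7A11. They were taken by gene name from the arrays, which carry 36337 gene names in all through a rule that uses no measured value. Each of the 9 genes had 1 probe. The probes of KEAP1 and HMOX1 were printed as 10 spots per array and the other probes as 1 spot.

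In unstressed cells KEAP1 holds NRF2 in a ubiquitin ligase built on the scaffold CUL3, and NRF2 is degraded as fast as it is made. Electrophiles and oxidants modify cysteines of KEAP1, and NRF2 then accumulates, pairs with a small MAF protein and binds antioxidant response elements (AREs) in the promoters and enhancers of its targets. The autophagy receptor p62, encoded by SQSTM1, also binds KEAP1 and is itself degraded in lysosomes. NRF2 is regulated for the most part through the stability of its protein, which an mRNA array does not measure.

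The arrays were hybridised with RNA of HCT116 H2B-GFP, a derivative of the near-diploid human colon cancer cell line HCT116 that expresses histone H2B fused to GFP. The cells had received bafilomycin A1, an inhibitor of the vacuolar proton pump (V-ATPase) that blocks acidification of lysosomes and the last steps of autophagy, at 10 nM for 30 h. 1 single-colour Agilent array was run for each of 4 biological replicates, and the labels and the methods differ in the serum content of the medium. The 3 untreated samples of the same line were not analysed here, so no value below is a response to bafilomycin A1: the values are the levels in treated cells and their spread between 4 cultures, without a test of any difference.

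The arrays held 58717 non-control spots of 50599 probes, of which between 55.6% (replicate 4) and 60.4% (replicate 1) of the spots were well above background and 0 were saturated. Outlying spots were left out, 2249 on replicate 3 and between 514 and 725 on the other arrays. Of 11 colon epithelial markers 9 were detected, with summed signals of 532115 to 636887, whereas VIL1 and CEACAM5 were well above background on no array. Most of that sum came from KRT8, KRT18 and KRT19 (55765, 258395 and 266714 on replicate 1). KRT20 had signals of 40 to 100 and LGALS4 of 40 to 60. The summed signal was 195 to 411 for 4 leukocyte markers, 681 to 1045 for 5 fibroblast and smooth muscle markers and 305 to 462 for 3 endothelial markers. In each of these lists 2 genes were detected (PTPRC and CD3E, COL1A1 and ACTA2, VWF and CDH5), COL1A2, COL3A1 and PECAM1 were well above background on no array, and the CD14 spots of replicates 2 and 3 were left out as outlying, which lowers the leukocyte sums there. Sums over different probes are not comparable between lists and do not measure cell purity. Any part of other cells in the values below was not tested.

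The sequences of 2 probes are shown because their letters bear on how the signals can be read. The NFE2L2 probe, at chr2:178095693-178095752 on the minus strand (GRCh37, as are all probe coordinates here), and the TXNRD1 probe, at chr12:104732949-104733008 on the plus strand, are given whole, as a probe without a measurable signal and a probe with one.
NFE2L2 probe: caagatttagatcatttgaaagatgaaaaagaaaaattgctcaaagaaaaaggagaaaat
TXNRD1 probe: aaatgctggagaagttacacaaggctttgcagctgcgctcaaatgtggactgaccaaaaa
The NFE2L2 probe holds 33 A among its letters (55%) and has a GC content of 25%, against 45% for the TXNRD1 probe. Only 27 probes of the array (0.0534%) held as many A, and 11.1% of these were well above background on all 4 arrays, compared with 48.7% of all probes. Of the 384 probes within 1 base of its GC count, 35.7% were.

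The GCLM probe, at chr1:94352810-94352869 on the minus strand, shared a run of 23 letters with a probe of another gene, and the probes of the other members shared runs of 13 to 17 letters at most. How much of the GCLM signal came from transcripts of other genes was not tested.

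The other probes lay at chr19:10597262-10597321 on the minus strand (KEAP1), chr16:69744274-69744333 on the minus strand (NQO1), chr22:35790122-35790181 on the plus strand (HMOX1), chr6:53362197-53362256 on the minus strand (GCLC), chr20:627563-627622 on the minus strand (SRXN1) and chr4:139085433-139085492 on the minus strand (SLC7A11).

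Promoter sequences were searched for the core of the ARE, TGACNNNGC, on both strands. The windows ran from 250 bases before to 50 bases after each start (RefSeq, GRCh38.p14). Of 35116 promoters in the table, 13.3% held the core. The table had 10 promoters for 7 members and none for HMOX1 and SLC7A11. The core was found in 4 promoters of 3 members, with 6 matches in all. It was in the promoter of GCLM, in both promoters of TXNRD1, with 2 matches in the first, and in 1 of the 2 promoters of KEAP1, also with 2 matches. The AP-1 motif TGANTCA, whose letters can overlap the ARE core, was in 7.71% of all promoters and in 0 of the 10. Windows are shown for a subunit of glutathione synthesis, for thioredoxin reductase and for the inhibitor of NRF2, in the gene's orientation with the match in capitals, as the ARE core itself or as its reverse complement.
GCLM, chr1:93909446-93909474, opposite strand, first base at -34 from the start: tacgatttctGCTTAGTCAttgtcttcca
TXNRD1, chr12:104215670-104215698, same strand, -99: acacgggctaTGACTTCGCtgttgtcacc
TXNRD1, chr12:104286920-104286948, opposite strand, -102: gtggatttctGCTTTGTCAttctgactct
KEAP1, chr19:10502784-10502812, opposite strand, -31: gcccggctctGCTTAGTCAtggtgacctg
The 9 matched letters in the GCLM and KEAP1 windows shown were identical. The other KEAP1 match, at -54, had different letters. It is not shown, nor is the other match in the first TXNRD1 promoter, at -8. A match describes letters in this window and not binding, and the known enhancers of several of these genes lie outside such windows.

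Of the 9 genes, 8 were well above background on all 4 arrays, and NFE2L2 was so on 0 arrays. Over all gene names on the array, 52.5% were detected on all 4 arrays, and 46.3% of those with a single probe. A level is given below as the log2 of the background-subtracted signal minus the median of the array. Levels of different probes are not comparable, because each probe binds its target with its own efficiency, and only the arrays are compared for each gene. Replicates of 1 condition carry no order.

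NFE2L2 encodes the factor itself. Its background-subtracted signal was 0.16, -1.98, -2.18 and -1.51 on replicates 1 to 4. The raw signal was 47.0 to 59.7 and the background taken off 48.5 to 59.6, with a background SD of 13.3 to 15.7. The spot thus lay at its local background on every array, at or below 0 on 3 of them, as did 13.3% of all probes on at least 3 arrays. The p-values for a difference from background that were deposited with the spot were 0.921, 0.230, 0.175 and 0.381. The dimmest spot that was well above background had a signal of 20.8 to 22.3, depending on the array. The NFE2L2 transcript was therefore not measurable with this probe, and the low detection rate of probes with as many A or as little GC stands beside that; the part of the probe in it was not tested. NFE2L2 has no SD or fold between arrays here.

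**Figure D1:**
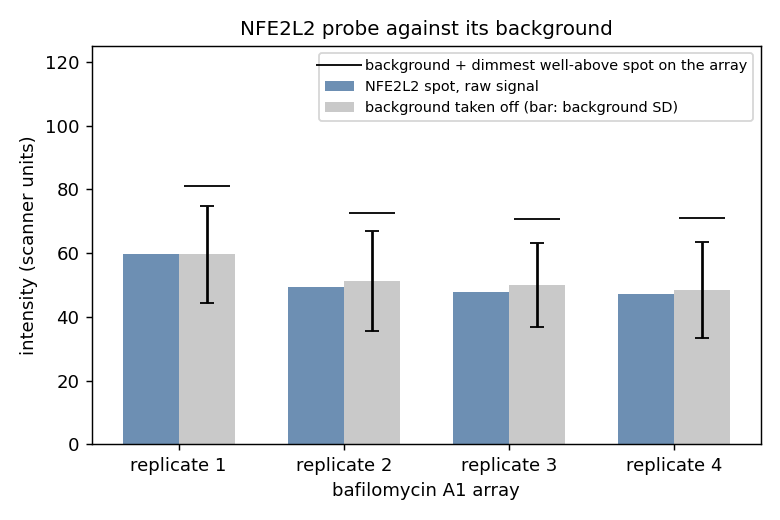
Raw intensity of the NFE2L2 spot (blue) beside the background taken off (grey, with the background SD as error bar) on each of the 4 arrays, in scanner units. The raw signal of 47.0 to 59.7 sat within 1 background SD of the background on every array and below the black line that marks background plus the dimmest well-above spot.

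KEAP1, the substrate adaptor that presents NRF2 to the ligase, had background-subtracted signals of 2714, 2814, 2760 and 2131 on replicates 1 to 4. After subtraction of the array median its levels were 5.14, 5.33, 5.30 and 5.07, with a mean of 5.21 ± 0.12 (SD, n = 4). Replicates 2 and 3 were high and replicates 1 and 4 low, and the highest array exceeded the lowest 1.20-fold. This was the smallest SD among the 8 detected genes, and 17.9% of all detected genes had a smaller one.

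NQO1 encodes the quinone reductase most often used as a readout of NRF2. Its signals were 832, 713, 891 and 733, and its levels 3.43, 3.35, 3.67 and 3.53, with a mean of 3.49 ± 0.14 (SD, n = 4). Replicate 3 was highest and replicate 2 lowest, 1.25-fold apart. HMOX1 encodes heme oxygenase, which splits heme into biliverdin, iron and carbon monoxide and is also repressed by BACH1 at the same elements. The HMOX1 signals were 20545, 18713, 20984 and 14436, and the levels 8.06, 8.06, 8.22 and 7.83, with a mean of 8.04 ± 0.16 (SD, n = 4). Replicates 1 and 2 were alike on this scale, with replicate 3 above and replicate 4 below them, and the span was 1.31-fold.

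Glutathione synthesis starts with glutamate-cysteine ligase, whose catalytic subunit is GCLC and whose modifier subunit is GCLM, and its cysteine comes in part from cystine that SLC7A11, the light chain of the cystine/glutamate antiporter, brings into the cell. The GCLC signals were 3662, 3500, 4911 and 3213, and the levels 5.57, 5.64, 6.13 and 5.66, with a mean of 5.75 ± 0.25 (SD, n = 4). Replicate 3 stood apart from the other arrays, which lay within 0.1 of each other. The span of 1.47-fold was the widest of the 8 genes, and 63.9% of all detected genes had a smaller SD. GCLM had signals of 3873, 2702, 3539 and 2672, and levels of 5.65, 5.27, 5.66 and 5.40, with a mean of 5.49 ± 0.19 (SD, n = 4). Replicates 1 and 3 were high and replicate 2 was low, a pattern unlike that of GCLC on replicate 1, and the span was 1.31-fold.

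SLC7A11 is also a target of ATF4, the factor of the integrated stress response. Its signals were 4558, 5223, 6036 and 3937, and its levels 5.89, 6.22, 6.43 and 5.96, with a mean of 6.12 ± 0.25 (SD, n = 4). Replicate 3 was highest, replicate 1 lowest, and the span was 1.45-fold, with 62.4% of all detected genes below it in SD. SLC3A2, the heavy chain that carries SLC7A11 to the membrane, went the other way on replicate 3: its levels were 6.52, 6.85, 5.33 and 6.04 (SD 0.66). SLC3A2 was chosen after its values were seen. The 2 chains of the antiporter thus had their highest and their lowest array in the same culture.

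TXNRD1 encodes the cytosolic thioredoxin reductase, which keeps thioredoxin reduced with NADPH. Its signals were 2235, 2498, 2140 and 1738, and its levels 4.86, 5.16, 4.93 and 4.78, with a mean of 4.93 ± 0.16 (SD, n = 4). Replicate 2 was highest, 1.30-fold above replicate 4. SRXN1 encodes sulfiredoxin, which repairs overoxidised peroxiredoxins. Its signals were 9021, 9865, 9833 and 7903, and its levels 6.87, 7.14, 7.13 and 6.96, with a mean of 7.02 ± 0.13 (SD, n = 4). Replicates 2 and 3 were alike and above replicates 1 and 4, with a span of 1.20-fold.

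**Figure D2:**
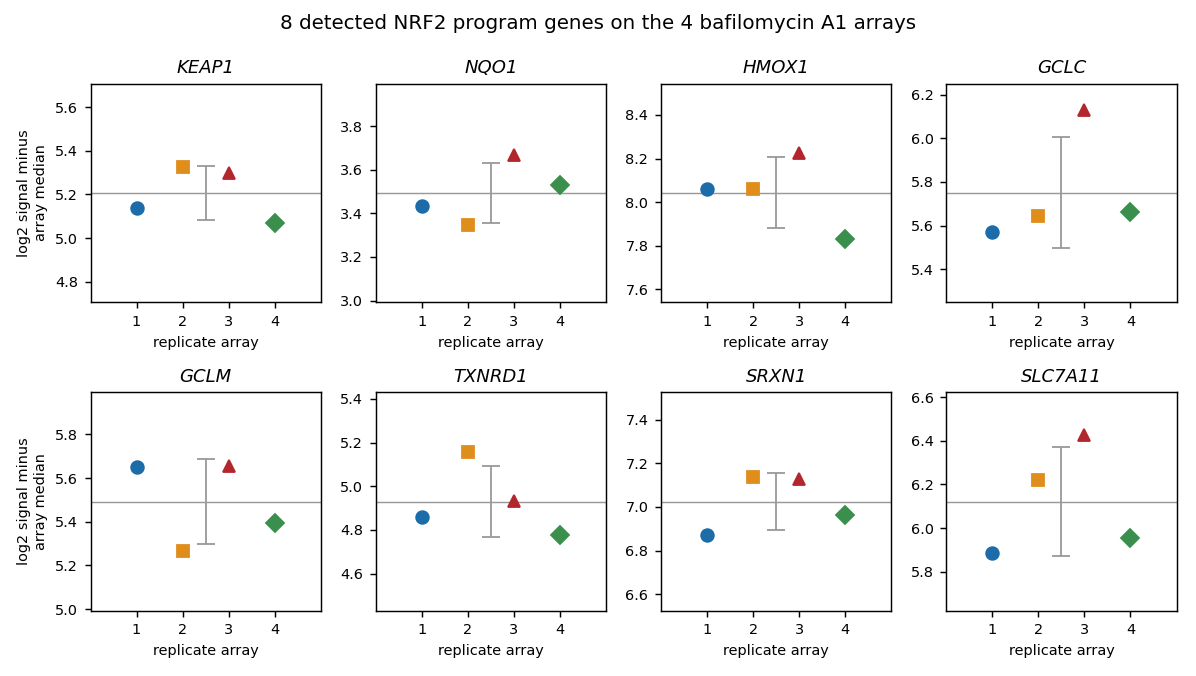
Level (log2 signal minus array median) of each of the 8 detected genes on the 4 bafilomycin A1 arrays, with 1 point per array, the mean as a grey line and the SD as a grey bar; every panel spans the same range of 1.0 on its own axis. On this scale replicate 3 was highest in 5 genes, by most in GCLC (6.13 against 5.57 to 5.66), and replicate 2 in KEAP1, TXNRD1 and SRXN1, whereas with quantile normalization replicate 3 was highest in 2 genes and lowest in 3.

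Across the 8 detected genes the SD between cultures was 0.12 to 0.25, with a median of 0.16, compared with a median of 0.21 over all 19083 detected genes. It was below that median in 6 genes and above it in GCLC and SLC7A11. The 500 detected genes nearest in level to each gene had smaller median SDs, 0.15 to 0.19. HMOX1, GCLM, GCLC and SLC7A11 lay above the median of their neighbours, and KEAP1, NQO1, TXNRD1 and SRXN1 below. Of the neighbours, 82.0% had a smaller SD than GCLC and 80.6% than SLC7A11. With normexp background correction and quantile normalization the order of the 8 genes and all detected genes turned. The median SD was 0.13 for the 8 genes and 0.11 for all detected genes, and 5 of the 8 (NQO1, GCLC, GCLM, TXNRD1 and SLC7A11) lay above the latter. The study's methods take a 1.4-fold change for a changed gene, and this size serves as a yardstick: GCLC and SLC7A11, 2 of 8 (25%), spanned more than 1.4-fold between replicates of the same treatment, compared with 46.4% of all detected genes. Both shares depended on replicate 3. Without it, 0 of the 8 genes spanned 1.4-fold and 21.9% of all detected genes did, and the median SD was 0.13 for the 8 genes and 0.15 for all. Processed signals centred on the 75th percentile, and quantile normalization, also left 0 of the 8 above 1.4-fold, with 39.1% and 15.5% of all detected genes above it.

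Replicate 3 was the highest array for 5 of the 8 genes (NQO1, HMOX1, GCLC, GCLM and SLC7A11) and the lowest for 0, and it was the highest array for 48.5% and the lowest for 23.2% of all detected genes. This count depended on the scaling. Replicate 3 was highest for 3 of the 8 genes with processed signals and for 7 with centring on all probes, while with quantile normalization it was highest for 2 (GCLC and SLC7A11) and lowest for 3 (KEAP1, TXNRD1 and SRXN1). Replicate 4 was lowest for 3 genes (KEAP1, HMOX1 and TXNRD1) and for 35.1% of all detected genes. The mean deviation of the 8 genes from their own 4-array means was -0.07, 0.01, 0.17 and -0.11 on replicates 1 to 4.

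Each gene was set beside the 500 detected genes nearest to it in level. On replicate 3, the HMOX1 deviation of 0.18, the NQO1 deviation of 0.17 and the GCLM deviation of 0.16 lay within 0.02 of the median deviation of their neighbours (0.16 to 0.17). GCLC deviated by 0.38 and SLC7A11 by 0.30 where their neighbours had medians of 0.17 and 0.18, while KEAP1 with 0.09 and SRXN1 with 0.11 lay below theirs, both 0.19. TXNRD1 did not move on replicate 3 (0.00027, neighbours 0.16). On the other arrays the widest departures from the neighbours were those of GCLM, with 0.16 on replicate 1 (neighbours -0.08) and -0.22 on replicate 2 (neighbours 0.02), and of TXNRD1 on replicate 2, with 0.23 (neighbours 0.03).

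The deviation of replicate 3 also went with the GC content of the probe. Over all probes well above background, the median deviation of replicate 3 was 0.30 below 35% GC, 0.24 from 35% to below 40%, 0.14 from 40% to below 45%, 0.07 from 45% to below 50%, and -0.07 at 50% and above. The GCLC probe has 36.7% GC, and the SLC7A11, KEAP1 and NQO1 probes have 35%. Probes within 1 base of these counts had a median deviation of 0.24 to 0.26, below the values of GCLC (0.38) and SLC7A11 (0.30) and above those of KEAP1 (0.09) and NQO1 (0.17). HMOX1 and GCLM, with 45% GC, deviated more than probes of like GC (0.08), and TXNRD1, with the same GC content, less. The part of base composition in these values was not tested.

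**Figure D3:**
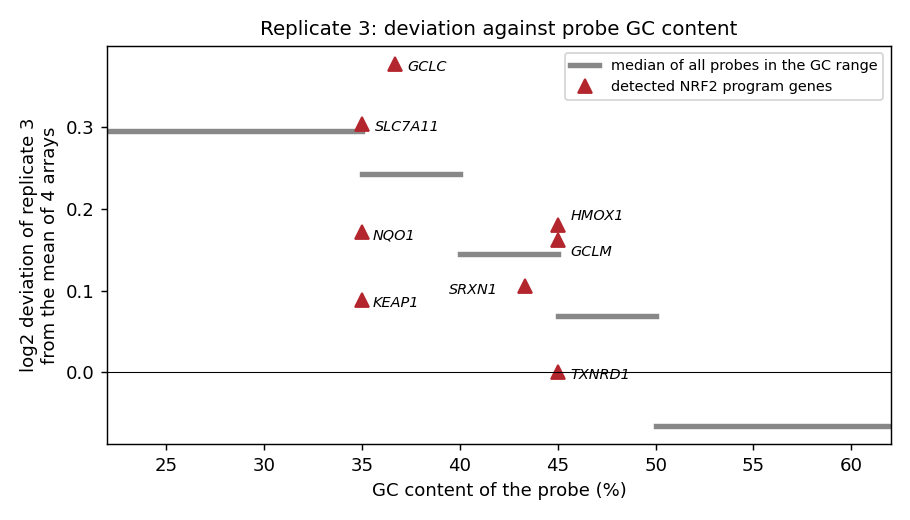
Log2 deviation of replicate 3 from the mean of the 4 arrays (vertical axis) against the GC content of the probe (horizontal axis, %) for the 8 detected genes (triangles), with the median over all well-above probes in each of 5 GC ranges as grey lines; the outermost ranges are open-ended and drawn to the edge. The grey lines step down from 0.30 to -0.07, GCLC (0.38) lies above them and KEAP1 (0.09), NQO1 (0.17) and TXNRD1 below.

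The repeated spots of KEAP1 and HMOX1 show how far spots of 1 probe differ within an array. The KEAP1 spots ranged from 2089 to 3510 on replicate 1, 2434 to 3138 on replicate 2, 2275 to 3487 on replicate 3 and 1828 to 2291 on replicate 4, with 1 outlying spot left out on replicates 2 and 4. The SD of single KEAP1 spots within an array was 0.16 (log2). The 4 array means, each over 9 or 10 spots, had an SD of 0.12, which was 2.4 times the SE of such a mean from its spots. HMOX1 spots ranged from 17575 to 23965, 16314 to 21779, 17918 to 24597 and 12971 to 16770. Their SD was 0.13 for single spots within an array and 0.16 between array means, 3.8 times the SE from the spots. Much of the spread within an array belonged to the position of the spot and recurred on every array. For the spots used on all 4 arrays, taking off the mean of each position lowered the SD within an array from 0.14 to 0.06 for KEAP1 (9 spots) and from 0.13 to 0.03 for HMOX1 (10 spots), compared with SDs between arrays of 0.13 and 0.16. Over the 673 detected probes printed in the same way, the median SD within an array fell from 0.17 to 0.06 by this step, and the median SD between arrays was 0.19. The other members have 1 spot per array, and their spot error was not measured.

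**Figure D4:**
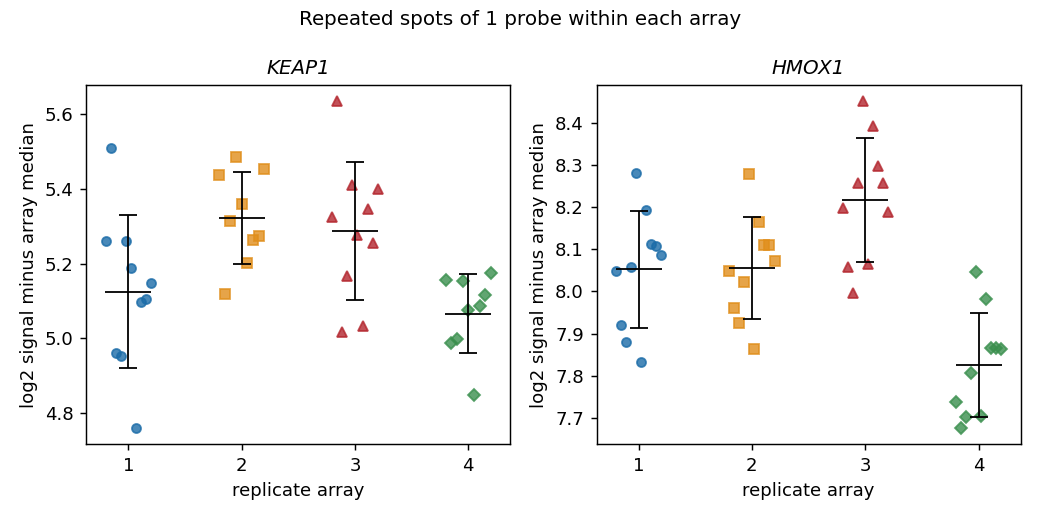
Level (log2 signal minus array median) of every spot of the KEAP1 probe (left) and the HMOX1 probe (right) on each array, with the mean and SD over spots in black. Once the array median is subtracted, both probes have a pair of arrays whose spots meet only at the ends of their ranges. For KEAP1 these are replicate 4 (levels of 4.85 to 5.17) and replicate 2 (5.12 to 5.48). For HMOX1 they are replicate 4 (levels of 7.675 to 8.046) and replicate 3 (7.996 to 8.453).

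For context, 87 other genes of the NRF2 pathway were grouped in 9 lists, of which 86 were found by name. Of these, 79 (91.9%) were detected on all 4 arrays, compared with 52.5% of all gene names, and a gene with several probes needed only 1 detected. Another 5 were detected on some arrays (GPX3, GLRX2, AKR1C1, CBR1 and UGT1A6). GLRX2 had signals of 2796, 2982 and 2984 on replicates 1 to 3, and its spot on replicate 4 was left out as outlying. The remaining 2 were detected on no array. The 2 were TXNIP, which encodes the inhibitor of thioredoxin, with signals of -6.08, 1.23, -4.02 and -2.19, and SOD3, the extracellular superoxide dismutase, with 6.40, 6.93 and 5.30 on replicates 1, 2 and 4. The median SD of the 79 genes was 0.18, and 26 of them (32.9%) spanned more than 1.4-fold, against 46.4% of all detected genes. The shares were 20.3% and 21.9% without replicate 3, and with quantile normalization their order turned, to 21.5% (17 genes) and 15.5%. Replicate 3 was the highest array for 49 and the lowest for 17 of the 79 genes, compared with 48.5% and 23.2% of all detected genes. How these counts depend on the scaling was not tested. Where a gene has several probes its level is the median over them, which includes dim probes. With only the detected probes 24 (30.4%) spanned 1.4-fold, compared with 40.1% of all detected genes under the same setting.

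Among the relatives and partners of NRF2 (other CNC factors, BACH proteins and small MAFs), 8 of 8 genes were detected, the median SD was 0.14 and 1 gene spanned 1.4-fold. On detected probes alone the median SD was 0.16 and 2 genes spanned 1.4-fold. NFE2, the blood-cell CNC factor, had the smallest SD, with levels of 1.22, 1.13, 1.31 and 1.17 (SD 0.08). BACH2, a repressor of the same elements, had the largest, with -0.03, 0.45, 0.05 and -0.09 (SD 0.24) over 2 probes and 1.53, 2.16, 2.37 and 1.65 on the detected one. NFE2L1, the close relative of NFE2L2, was chosen after its values were seen: its levels were 7.05, 7.20, 7.22 and 6.95 (SD 0.13), so a CNC factor other than NFE2L2 was measured on every array.

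All 8 genes of the turnover list were detected. Their median SD was 0.23, and 5 spanned 1.4-fold. BTRC, the adaptor of a second ligase that acts on NRF2, varied least (3.15, 3.24, 3.28 and 3.09, SD 0.09). CUL3 had the largest SD by gene level (0.61, 1.62, 7.47 and 0.45, SD 3.33), which arose from its 2 probes. The detected probe read 6.90, 7.14, 7.47 and 7.10 (SD 0.24), and the other was near background and had no value on replicate 3, so that the median there was that of the detected probe alone. SQSTM1, which encodes p62 and was also chosen after its values were seen, had levels of 8.87, 9.04, 8.49 and 8.81 (SD 0.23). Replicate 3 was its lowest array, opposite to GCLC and SLC7A11. The SQSTM1 probe has 51.7% GC, against 36.7% for GCLC and 35% for SLC7A11. The NFE2 probe also has 51.7% GC, and replicate 3 was its highest array, while the SLC3A2 probe, lowest on replicate 3, has 45%. The part of base composition was not tested.

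In the list for glutathione synthesis, recycling and use, 20 of 22 genes were detected, the median SD was 0.19 and 6 spanned 1.4-fold. GSTP1, a glutathione transferase, was the steadiest at 10.46, 10.54, 10.66 and 10.50 (SD 0.09). ABCC2, an exporter of glutathione conjugates, was the most variable by gene level (1.42, 5.04, 5.69 and 5.09, SD 1.95). Its second probe had a value on replicate 1 only, and the detected probe read 5.06, 5.04, 5.69 and 5.09 (SD 0.32), again with replicate 3 highest.

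Of the thioredoxin and peroxiredoxin genes, 12 of 13 were detected. Their median SD was 0.18, and 4 spanned 1.4-fold. PRDX1, the main cytosolic peroxiredoxin and a substrate of SRXN1, read 10.02, 10.16, 10.18 and 10.05 (SD 0.08). PRDX4, the peroxiredoxin of the endoplasmic reticulum, had the largest SD by gene level (-2.86, -2.66, -1.70 and -1.92, SD 0.56), but 8.50, 8.49, 8.82 and 8.50 (SD 0.16) on the only detected one of its 3 probes. All 7 genes of NADPH supply were detected. Their median SD was 0.19, and 3 spanned 1.4-fold. TKT, a transketolase of the pentose phosphate pathway, varied least (10.64, 10.69, 10.89 and 10.65, SD 0.12). PGD, the dehydrogenase of the same pathway that yields NADPH, varied most (7.85, 7.97, 7.31 and 7.72, SD 0.29) and was lowest on replicate 3.

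Of 13 genes of quinone, carbonyl and xenobiotic detoxification, 10 were detected. Their median SD was 0.27, and 5 spanned 1.4-fold. With only the detected probes the median SD was 0.20, and with quantile normalization it was 0.09 and 1 gene spanned 1.4-fold. AKR1B1, an aldo-keto reductase, varied least (4.53, 4.71, 4.67 and 4.50, SD 0.10). CES1, a carboxylesterase, varied most by gene level (-3.10, -2.74, 0.47 and -1.69, SD 1.61), and its detected probe went down on replicate 3 where the gene level went up (3.04, 2.70, 2.04 and 2.82). The heme and iron genes were the steadiest: 7 of 7 were detected, 0 spanned 1.4-fold and their median SD was 0.13. FTH1, the ferritin heavy chain, read 11.03, 11.06, 11.07 and 10.93 (SD 0.06), and FECH, which inserts iron into heme, 1.39, 1.32, 1.58 and 1.22 (SD 0.15).

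Of 4 superoxide and peroxide enzymes 3 were detected (median SD 0.18, 1 above 1.4-fold). SOD2, the mitochondrial superoxide dismutase, read 5.78, 5.87, 6.07 and 5.82 (SD 0.13). CAT, catalase, read 3.96, 4.01, 4.63 and 4.02 (SD 0.32), with replicate 3 apart as in GCLC. All 4 other targets were detected (median SD 0.15, 1 above 1.4-fold), and TRIM16L varied least (4.48, 4.58, 4.62 and 4.44, SD 0.09). OSGIN1, which encodes a stress-induced growth inhibitor, varied most, with 3.89, 4.09, 3.06 and 3.51 (SD 0.46) and its lowest array on replicate 3, 2.05-fold below the highest. Its probe has 55% GC, as have those of TKT and GSTP1, for which replicate 3 was the highest array.

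**Figure D5:**
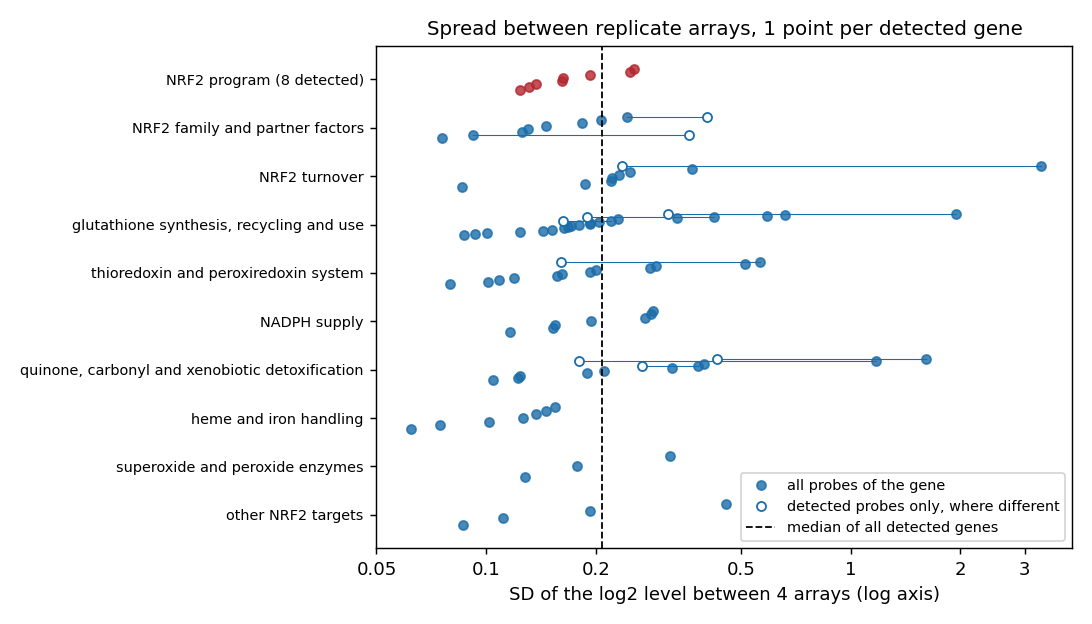
SD of the level between the 4 arrays (horizontal log axis, log2 units) for each detected gene of the NRF2 program (red) and of the 9 wider lists (blue), with open circles for the value from detected probes only where it differs and a dashed line at the median of all detected genes (0.21). The 8 program genes lie between 0.12 and 0.25, and the widest points (CUL3 at 3.33, ABCC2 at 1.95 and CES1 at 1.61) move to 0.24, 0.32 and 0.43 with detected probes only.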

How the data were processed

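RNA of 4 HCT116 H2B-GFP cultures treated with bafilomycin A1 was read on single-colour Agilent arrays, all on 1 slide scanned together, so a slide or scan effect could not be tested. The files that the authors deposited hold intensity values, which Feature Extraction 10.7.3.1 (submitters' processing notes) read from the scans and background-subtracted; no normalization between arrays was applied. Each deposited spot also has a p-value for its difference from background. The number of arrays limits the precision.

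From these values, control spots and spots flagged as outlying in signal or background were left out, the spots of a probe were averaged, and log2 of the background-subtracted signal minus the array median was computed. Signals at or below 0 have no log and were left out on that array. The level of a gene is the median over its probes. Detection of a probe on an array required that above 50% of its spots carried the flag for well above background, and detection of a gene required 1 probe detected on all 4 arrays.

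All 9 program genes are named, and from each wider list the genes with the largest and the smallest SD and those well above background on no array. The program genes and lists were chosen with earlier results of these data known. AKR1C2 was not found by name. The letters of the run that the GCLM probe shares with another probe are not reported here. Alternatives were processed signals centred on the 75th percentile, normexp background correction (offset 50) with quantile normalization in limma 3.58.1, other choices of probes, centring, outlying spots and detection flags, a 2-fold span, and leaving out each array. Added after seeing the data were the same settings for the wider lists and the comparison with probes of like GC content, the tally of the highest array by setting and the removal of spot position means. Statistics were tested on simulated data. Python 3.11.15, numpy 2.4.6, pandas 2.3.3, scipy 1.17.1, matplotlib 3.10.9 and R 4.3.3 were used.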

Additional observations from a re-analysis of the deposited data

Results flagged for a closer look

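In 4 of 29 genes examined, 1 array lay apart from the other 3 by more than the critical value of Dixon's ratio, which chance exceeds in about 5% of groups of 4. Among all detected genes 8.48% exceeded it, and the array apart was replicate 3 in 63.3% of these. CAT, CUL3 and ABCC2 were examined because they had the largest SD of their lists, which an array far apart enlarges. The 4 of 29 can therefore not be set against the 5% or the 8.48%. GCLC had a level of 6.13 on replicate 3 against 5.57 to 5.66 on the others (ratio 0.84), and the ratio was not exceeded with processed signals, with quantile normalization, with centring on all probes or, by a narrow margin, with outlying spots kept. HMOX1 exceeded it only with centring on all probes (ratio 0.87). CAT had a level of 4.63 on replicate 3 against 3.96 to 4.02. CUL3 had a gene level of 7.47 on replicate 3 against 0.45 to 1.62, where only its detected probe had a value. ABCC2 had a gene level of 1.42 on replicate 1 against 5.04 to 5.69, where its probe near background had a value.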

How the results depend on the processing

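No paired analysis was possible because the untreated samples that share replicate numbers with the treated ones were not analysed here, which leaves 1 group. All settings detected 8 program genes. Scalings, centring and choices of probes reused the same detection flags, and leaving out an array can only add genes. These settings could therefore not lower this count or that of the wider lists. The 2 genes that spanned more than 1.4-fold became 0 with processed signals, 0 with normexp and quantile normalization, and 0 at 2-fold, and 0 (without replicate 3) to 2 with an array left out (1 without replicate 1). Their median SD of 0.16 became 0.11 with processed signals, 0.13 with normexp and quantile normalization, and 0.13 (without replicate 3) to 0.19 (without replicate 1) with an array left out. Of the wider lists, 26 genes spanning more than 1.4-fold became 17 with normexp and quantile normalization and 16 (without replicate 3) to 25 (without replicate 1) with an array left out. With centring on all probes they became 35 (44.3%), compared with 51.4% of all detected genes. Over the settings 79 to 84 genes of these lists were detected. For single program genes over all settings, 61 SDs stayed within the error taken from leaving out arrays and 19 moved. The choices of probes could not change an SD, as each gene had 1 probe detected on all arrays. The settings without an array were judged against an error taken from these same settings. The 61 were thus in part fixed in advance. Levels moved in 24 cases, all under another scaling or centring, which shifts every gene of an array. The causes were not tested. The NFE2L2 signal lay at background and limits any statement on that gene. The planned search for KEAP1 contact motifs in the NRF2 protein was not run.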
